A study of Saccharomyces cerevisiae with 8 samples.

Results

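The small subunit processome genes of budding yeast, Saccharomyces cerevisiae, are 48 protein-coding genes for assembly factors of the small ribosomal subunit. They were chosen by name from a list of such factors, with no measured value in the rule but with earlier results of these data known. All 48 were among the 6034 coding targets of the deposited tables. The study measured poly-A RNA of strain W303a in 8 libraries, 2 in each of 4 groups. Cultures in YPD (2% dextrose) reached an OD600 of 0.2 to 0.4 at 30 °C before a 5 min hold at 39 °C, the heat shock, or at 30 °C. The groups were heat shock with 5ph-IAA, heat shock without it, 30 °C with 5ph-IAA, and 30 °C without it, the control. 5ph-IAA is an auxin analogue used to destroy proteins that carry a degron tag. The treatment protocol gives it at 5 µM together with 1 µM β-estradiol for 30 min to deplete Ifh1, a coactivator of ribosomal protein genes, whereas the design text names anchor away, which moves a protein out of the nucleus. The labels used here name neither the tagged strain nor what the cells without 5ph-IAA received. They number the replicates as biological ones without speaking of separate cultures, so the p-values reflect only how far these samples spread, which may be technical.

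The small subunit processome forms in the nucleolus on the nascent precursor of the 18S rRNA. Its subcomplexes UtpA, UtpB and the U3 small nucleolar RNP join with the Mpp10 complex, helicases and a GTPase to fold, modify and cleave that precursor. In yeast these genes belong to the ribosome biogenesis regulon, which is known to be repressed in environmental stress, and many of their promoters carry a pair of short elements called PAC and RRPE. PAC is bound by the repressors Tod6 and Dot6, and RRPE by the repressor Stb3.

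The libraries held 7717767 to 21025464 estimated counts, with the deepest in the heat shock group without 5ph-IAA. Pearson's r of log2 TPM between the 2 libraries of a group was 0.990 to 0.996 across genes. The a-cell genes STE2, BAR1, STE6 and AGA2, which match the mating type in the strain's name, had 10.3 to 495 TPM, whereas the alpha-cell genes STE3, MFALPHA1, MFALPHA2 and SAG1 had 0 to 25.6 TPM. The a-factor genes MFA1 and MFA2, 2 very short targets, were listed at 0 in every library. The heat shock gene SSA4 averaged 6388 TPM in heat shock with 5ph-IAA, 7197 TPM in heat shock without it, 31.8 TPM at 30 °C with it and 15.6 TPM in the control. IFH1 mRNA had 13.7 and 14.3 TPM in heat shock with 5ph-IAA, 10.1 and 9.06 TPM in heat shock without it, 26.6 and 24.0 TPM at 30 °C with it, and 24.1 and 22.6 TPM in the control. In the edgeR fit used below, with TMM scaling, IFH1 had a log2 change with 5ph-IAA of -0.53 ± 0.06 at 30 °C (adjusted p = 1.41e-05). At 39 °C its change with 5ph-IAA was 0.26 ± 0.07 (adjusted p = 0.00927). Removal of a protein by a degron or by anchor away need not change its mRNA, so these values do not check the depletion. In bulk RNA, fewer cells and less RNA per cell cannot be told apart.

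The 48 genes lie on 14 chromosomes, each with a single coding exon, and none overlaps another target. Their coding lengths range from 552 bases for IMP3 to 7482 bases for UTP20, with a median of 1779 bases. All their estimated counts were whole numbers in every library (to within 1e-06), so no read was shared with another target. The promoter windows of 250 bases before the start codon, read from the RefSeq R64 genome of the reference strain S288C, were searched on both strands for PAC, written CGATGAG, and RRPE, written AAAAATTTT. W303a may differ from S288C in these windows. PAC was in 35 of 48 windows (72.9%), against 379 of 6001 windows of all genes (6.32%). RRPE was in 28 of 48 (58.3%), against 6.73% of all. Both were in 21 of 48 (43.8%), against 2.08% of all. The Rap1 core ACCCATACA, a letter string chosen for ribosomal protein promoters, was in 0 of 48 windows and in 0.4% of all windows. With a longer PAC (GCGATGAG) the count was 27 of 48 (56.2%, against 3.83% of all), and with a shorter RRPE (AAAATTTT) it was 35 of 48 (72.9%, against 8.65% of all).

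The next windows show the paired arrangement in members of different subcomplexes, 5′ to 3′ on the gene's strand, with PAC and RRPE in capitals. CTCATCG is PAC and AAAATTTTT is RRPE read on the opposite strand.
PWP2, chrIII:223352-223398, minus strand: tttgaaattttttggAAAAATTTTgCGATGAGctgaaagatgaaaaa
UTP10, chrX:217389-217441, minus strand: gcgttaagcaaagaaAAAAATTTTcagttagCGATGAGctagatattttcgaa
NAN1, chrXVI:310048-310109, plus strand: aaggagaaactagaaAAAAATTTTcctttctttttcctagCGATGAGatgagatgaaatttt
BMS1, chrXVI:143257-143307, minus strand: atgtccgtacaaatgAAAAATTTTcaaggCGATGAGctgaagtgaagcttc
DBP8, chrVIII:442017-442065, plus strand: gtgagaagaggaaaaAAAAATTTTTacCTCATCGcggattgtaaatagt
ENP1, chrII:714555-714606, minus strand: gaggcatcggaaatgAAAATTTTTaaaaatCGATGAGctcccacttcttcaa
NOP14, chrIV:190697-190758, minus strand: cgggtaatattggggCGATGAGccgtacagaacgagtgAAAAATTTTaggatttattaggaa
In these 7 windows RRPE stood upstream of PAC except in NOP14, where PAC came first. In PWP2 a single base separated them.

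Other members held a single kind of element or neither. NSR1, UTP13, RCL1 and SOF1 are shown for PAC alone, and RRP5 and TSR1 for RRPE alone. NSR1 and UTP13 had the most negative log2 changes of all members in heat shock without 5ph-IAA, and RCL1 and SOF1 departed from the rest.
NSR1, chrVII:807822-807858, minus strand: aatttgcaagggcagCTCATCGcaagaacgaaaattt
UTP13, chrXII:581843-581879, minus strand: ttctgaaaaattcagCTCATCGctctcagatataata
RCL1, chrXV:307815-307851, plus strand: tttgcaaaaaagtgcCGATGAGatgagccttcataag
SOF1, chrXII:127425-127461, plus strand: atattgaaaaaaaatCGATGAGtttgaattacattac
RRP5, chrXIII:731267-731315, minus strand: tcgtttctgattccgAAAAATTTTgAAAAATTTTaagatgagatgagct
TSR1, chrIV:341473-341511, plus strand: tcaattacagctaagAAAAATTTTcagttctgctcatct
RRP9, chrXVI:802209-802269, plus strand: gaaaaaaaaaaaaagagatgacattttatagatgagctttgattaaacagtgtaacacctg
RRP9 is among the 6 members with neither string in the 250 bases, with ESF1, ESF2, NOC4, UTP22 and UTP30, and its window from 150 to 90 bases upstream is shown for contrast. The members held 36 matches of each element. A stretch of AAAAATTTTT counts as 2 overlapping RRPE matches on opposite strands, as in DBP8, ROK1 and UTP25. The middle match of PAC lay 105 bases upstream of the start codon and that of RRPE 125.5 bases upstream.

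**Figure D1:**
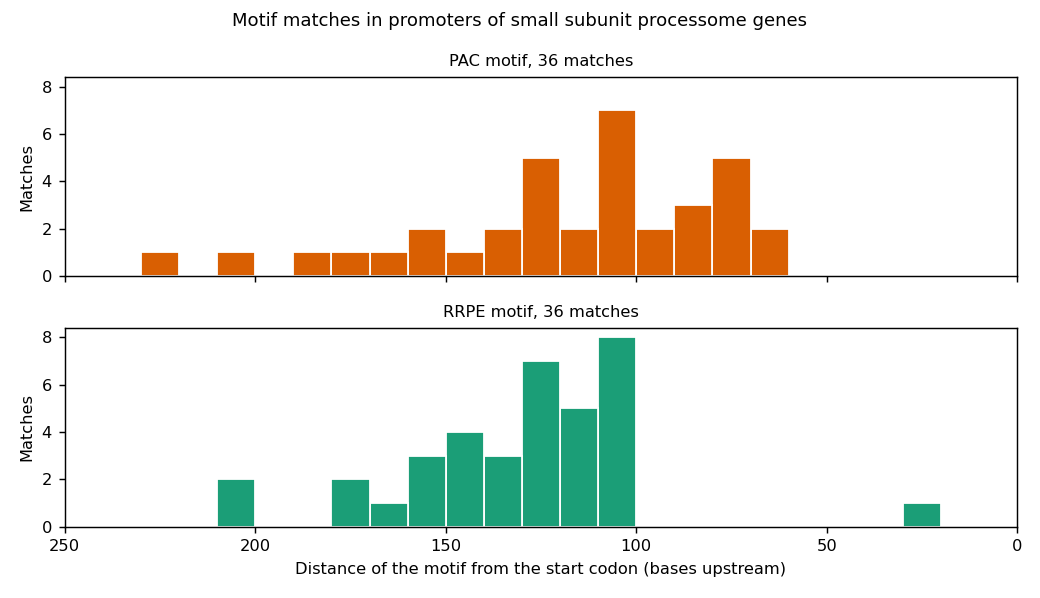
Histograms of the distance from the start codon (bases upstream, bins of 10 bases) of the 36 PAC matches (top) and the 36 RRPE matches (bottom) in the 48 promoter windows. PAC matches lay 64 to 223 bases upstream and RRPE matches 26 to 207 bases upstream. Overlapping RRPE matches on opposite strands are counted separately.

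Together the 48 genes held 1175 and 1244 TPM (transcript abundance per length, scaled to a fixed total) in heat shock with 5ph-IAA, 482 and 466 TPM in heat shock without it, 6348 and 6175 TPM at 30 °C with it, and 5601 and 5404 TPM in the control. Their share of TPM was thus 0.121% ± 0.00486 in heat shock with 5ph-IAA, 0.0474% ± 0.00108 in heat shock without it, 0.626% ± 0.0122 at 30 °C with it and 0.55% ± 0.0139 in the control (SD, n = 2 each). The share was 5.18-fold lower in heat shock with 5ph-IAA than at 30 °C with 5ph-IAA, and 11.6-fold lower in heat shock without it than in the control. With 5ph-IAA it was 2.55-fold that without it at 39 °C, and 1.14-fold at 30 °C. Each comparison gave p = 0.33 in a two-sided exact permutation test with 2 libraries on each side, the smallest p that this design allows, and in each the libraries of the groups did not overlap. As a share of estimated counts the order at 30 °C turned round, with 1.29% with 5ph-IAA and 1.39% without it.

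The ranks of the genes within a library moved with temperature. The median member stood at percentile 21.4 and 23.5 of all genes in heat shock with 5ph-IAA, 11.2 and 11.6 in heat shock without it, 73.5 and 72.9 at 30 °C with it, and 76.9 and 76.8 in the control. The lowest count behind any member was 45 reads, for DHR2 in heat shock with 5ph-IAA. Ribosomal protein genes held 10.3% of TPM in heat shock with 5ph-IAA, 19.6% in heat shock without it, 17.2% at 30 °C with it and 40.2% in the control. TPM values of other genes are relative to a total that includes these.

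**Figure D2:**
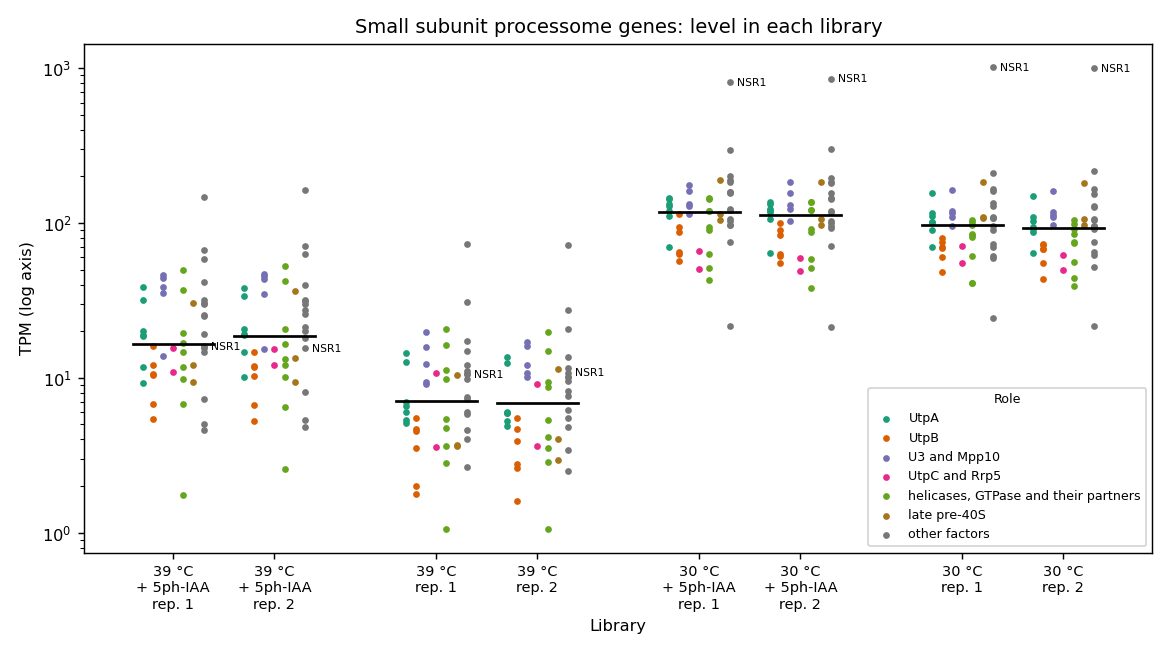
TPM of each of the 48 genes (dots, coloured by role, log axis) in each library, with the median over the 48 as a black bar. The medians lie at 16.5 and 18.6 TPM in heat shock with 5ph-IAA, 7.11 and 6.91 in heat shock without it, 117 and 112 at 30 °C with it, and 96.8 and 92.9 in the control, and NSR1 is the top gene in all 30 °C libraries but not at 39 °C.

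All 48 genes fell in heat shock with 5ph-IAA and all 48 fell in heat shock without it (edgeR quasi-likelihood test on the estimated counts, TMM scaling, Benjamini-Hochberg adjusted p under 0.05 over 5734 genes). Of all genes tested, 38.3% were lower in heat shock with 5ph-IAA and 39.7% in heat shock without it. The median log2 fold change of the 48 was -2.29 with 5ph-IAA, against 0.01 over all genes tested, and -3.73 without 5ph-IAA, against 0.04. With library totals alone the median of all genes moved to -0.32 with 5ph-IAA, where 1409 genes were higher and 3156 lower, against 2178 and 2194 on the TMM scale. Over 17 settings the members' median minus that of all genes was -2.32 to -2.21 with 5ph-IAA and -3.85 to -3.56 without it. Library scaling moves both medians alike, so these ranges do not test the scaling. On the TMM scale, the median gene kept 20.4% of its 30 °C level after heat with 5ph-IAA (range 2.2% to 61.3%) and 7.5% without it (1.0% to 31.2%). After heat, 6 genes were left at under 10% of their 30 °C level with 5ph-IAA, and 35 without it. By TPM, both heat shock libraries lay below both 30 °C libraries for 48 of 48 genes with 5ph-IAA (55.7% of all genes) and for 48 of 48 without it (38.5% of all genes). 0 members were higher in either comparison, also at an unadjusted p under 0.05 and with DESeq2, where edgeR called 38.0% of all genes higher with 5ph-IAA and 42.5% without it. Of the 100 genes with the most negative change without 5ph-IAA, 24 were members, and of the 500 most negative, 48.

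The heat shock changes with and without 5ph-IAA come from separate libraries. Across the 48 genes they had Pearson's r 0.81 and Spearman's rho 0.77, given as a description since genes are not independent replicates. Without NSR1, the lowest in both, r was 0.751.

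**Figure D3:**
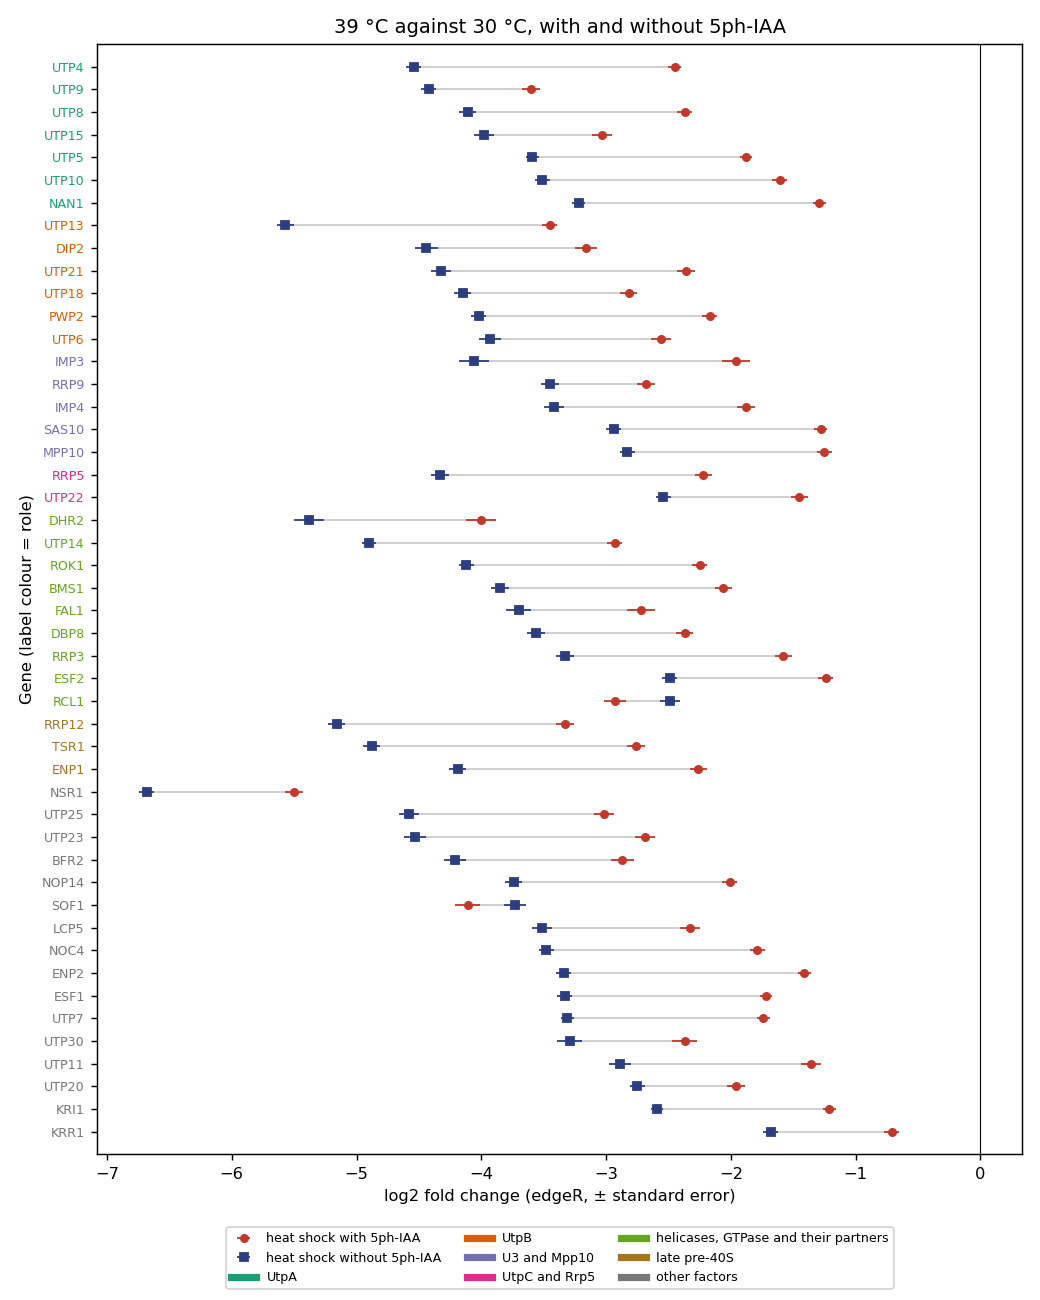
log2 fold change of 39 °C against 30 °C (edgeR, ± standard error) for each of the 48 genes, with 5ph-IAA (red circles) and without it (blue squares), ordered by role. All points lie below 0, and the red circle lies to the right of the blue square for every gene except RCL1 and SOF1.

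The U3 small nucleolar RNP base-pairs with the rRNA precursor, and the Mpp10 complex holds it there. The 5 genes of this set had a median change of -1.88 in heat shock with 5ph-IAA and -3.42 without it (log2). IMP3, which helps U3 pair with the precursor, had 35.1 and 43.6 TPM in heat shock with 5ph-IAA, 9.15 and 12.1 TPM in heat shock without it, 175 and 183 TPM at 30 °C with it, and 163 and 161 TPM in the control. MPP10, the scaffold of its complex, had 46.1 and 47.2 TPM in heat shock with 5ph-IAA, 19.8 and 17.0 TPM without it, 129 and 130 TPM at 30 °C with it, and 120 and 118 TPM in the control. Both heat shock groups lay below both 30 °C groups for each gene, and the heat shock group with 5ph-IAA lay between. The change of MPP10 was -1.25 ± 0.06 on the log2 scale with 5ph-IAA (adjusted p = 2.9e-10) and -2.83 ± 0.06 without it (adjusted p = 2.87e-14). RRP9, a protein specific to the U3 RNP, had 13.8 and 15.3 TPM in heat shock with 5ph-IAA, 9.4 and 10.1 TPM without it, 114 and 103 TPM at 30 °C with it, and 96.3 and 97.3 TPM in the control. Its heat shock groups lay close together, at -2.68 ± 0.07 with 5ph-IAA and -3.45 ± 0.07 without it, whereas IMP3, IMP4 and SAS10 had -1.96, -1.88 and -1.28 with it and -4.06, -3.42 and -2.94 without it.

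UtpA is the first complex to bind the 5′ end of the precursor. Its 7 genes had a median change of -2.37 in heat shock with 5ph-IAA and -3.98 without it. UTP10, its largest subunit, had 18.7 and 18.9 TPM in heat shock with 5ph-IAA, 6.95 and 5.95 TPM without it, 70.5 and 63.9 TPM at 30 °C with it, and 70.4 and 64.1 TPM in the control. NAN1, also called Utp17, had 38.4 and 37.8 TPM in heat shock with 5ph-IAA, 12.6 and 12.4 TPM without it, 111 and 107 TPM at 30 °C with it, and 111 and 103 TPM in the control. In TPM the 30 °C groups of both genes overlapped and the heat shock groups were far apart. On the TMM scale both were called lower with 5ph-IAA at 30 °C (UTP10 -0.65, NAN1 -0.61). UTP4, a subunit with WD40 repeats, had 18.9 and 20.6 TPM in heat shock with 5ph-IAA, 5.31 and 5.24 TPM without it, 128 and 124 TPM at 30 °C with it, and 116 and 109 TPM in the control. UTP5 had the highest mean level of the complex at 30 °C, with 31.9 and 33.6 TPM in heat shock with 5ph-IAA, 14.4 and 13.6 TPM without it, 146 and 136 TPM at 30 °C with it, and 157 and 150 TPM in the control. The subunits differed in what 5ph-IAA left after heat. NAN1 kept 40.9% of its 30 °C level with 5ph-IAA and 10.7% without it, while UTP9 kept 8.3% with it and 4.7% without it. UTP9 had 9.33 and 10.1 TPM in heat shock with 5ph-IAA, 5.12 and 4.88 TPM without it, 143 and 132 TPM at 30 °C with it, and 101 and 94.2 TPM in the control. UTP15 was near UTP9, with 12.3% left with 5ph-IAA and 6.3% without it.

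UtpB bridges UtpA and the U3 RNP. Its 6 genes had a median change of -2.69 in heat shock with 5ph-IAA and -4.23 without it. UTP13 showed the steepest fall of the complex. It had 6.77 and 6.68 TPM in heat shock with 5ph-IAA, 1.79 and 1.61 TPM without it, 87.6 and 84.3 TPM at 30 °C with it, and 75.7 and 71.9 TPM in the control. Its change was -3.45 ± 0.06 with 5ph-IAA (adjusted p = 1.07e-14) and -5.57 ± 0.07 without it (adjusted p = 1.27e-16). UTP13 (chrXII:579318-581771, minus strand) lies directly downstream of IFH1, on the same strand and 461 bases away. PWP2, a WD40 scaffold also called Utp1, had 12.2 and 12.0 TPM in heat shock with 5ph-IAA, 4.65 in both libraries without it, 64.9 and 62.8 TPM at 30 °C with it, and 70.0 and 67.7 TPM in the control. At 30 °C both of its libraries with 5ph-IAA lay below both control libraries. UTP6, the highest of the complex in all groups, had 16.1 and 14.8 TPM in heat shock with 5ph-IAA, 5.48 and 5.52 TPM without it, 115 and 99.5 TPM at 30 °C with it, and 80.4 and 73.2 TPM in the control. DIP2, UTP18 and UTP21 kept 11.2%, 14.2% and 19.4% of their 30 °C level after heat with 5ph-IAA, and 4.6%, 5.6% and 5.0% without it.

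UTP22, of the UtpC complex, and RRP5, a factor of both subunits' assembly, differed in their response. UTP22 had 15.7 and 15.4 TPM in heat shock with 5ph-IAA, 10.7 and 9.14 TPM without it, 50.4 and 49.2 TPM at 30 °C with it, and 55.6 and 50.1 TPM in the control. RRP5 had 10.9 and 12.2 TPM in heat shock with 5ph-IAA, 3.58 and 3.65 TPM without it, 65.9 and 59.9 TPM at 30 °C with it, and 70.7 and 62.3 TPM in the control. Heat with 5ph-IAA left 36.6% of UTP22 and 21.5% of RRP5. Without it, heat left 17.2% of UTP22 and 5.0% of RRP5. RRP5 shares its upstream region with the ribosomal protein gene RPS10B, which starts 1290 bases away on the other strand.

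Among the helicases, the GTPase Bms1 and their partners, the median change of 9 genes was -2.37 in heat shock with 5ph-IAA and -3.70 without it. DHR2, a DEAH-box helicase, fell to the lowest level of all 48 genes. It had 1.74 and 2.57 TPM in heat shock with 5ph-IAA, 1.05 in both libraries without it, 42.6 and 37.8 TPM at 30 °C with it, and 41.3 and 39.1 TPM in the control. Its heat shock values rested on 45 and 61 reads with 5ph-IAA and 62 and 60 without it, which gave standard errors of 0.12 around -4.0 and -5.38. DBP8, a DEAD-box helicase, had 19.4 and 20.7 TPM in heat shock with 5ph-IAA, 9.83 and 8.73 TPM without it, 120 and 122 TPM at 30 °C with it, and 102 and 98.6 TPM in the control. ESF2, which stimulates Dbp8, had the highest level of this set, with 49.5 and 52.7 TPM in heat shock with 5ph-IAA, 20.6 and 19.9 TPM without it, 146 and 136 TPM at 30 °C with it, and 104 in both control libraries. Heat left 42.4% of ESF2 with 5ph-IAA and 17.8% without it, more than in most of the set. BMS1, the GTPase, had 11.7 and 13.3 TPM in heat shock with 5ph-IAA, 4.73 and 4.13 TPM without it, 62.7 and 58.9 TPM at 30 °C with it, and 61.2 and 56.0 TPM in the control. RCL1, the partner of Bms1, had 14.7 and 12.2 TPM in heat shock with 5ph-IAA, 16.2 and 14.9 TPM without it, 120 and 121 TPM at 30 °C with it, and 83.7 and 75.7 TPM in the control. In RCL1 the heat shock libraries with 5ph-IAA lay below those without it, the reverse of BMS1. RRP3, a DEAD-box protein, had 36.8 and 42.5 TPM in heat shock with 5ph-IAA, 11.2 and 9.38 TPM without it, 142 and 136 TPM at 30 °C with it, and 97.4 and 91.6 TPM in the control. UTP14, ROK1 and FAL1 kept 13.1%, 21.0% and 15.2% after heat with 5ph-IAA, and 3.4%, 5.8% and 7.7% without it.

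ENP1, TSR1 and RRP12 remain on the particle into later stages of the pre-40S subunit, and Rrp12 has a role in export. Their median change was -2.76 in heat shock with 5ph-IAA and -4.88 without it, the lowest of the 7 sets without 5ph-IAA. ENP1 had 30.6 and 36.6 TPM in heat shock with 5ph-IAA, 10.5 and 11.4 TPM without it, 191 and 185 TPM at 30 °C with it, and 183 and 182 TPM in the control. TSR1 had 12.1 and 13.5 TPM in heat shock with 5ph-IAA, 3.62 and 4.0 TPM without it, 105 and 97.6 TPM at 30 °C with it, and 108 and 97.0 TPM in the control. RRP12 had 9.34 and 9.46 TPM in heat shock with 5ph-IAA, 3.68 and 2.93 TPM without it, 114 and 107 TPM at 30 °C with it, and 110 and 107 TPM in the control. In TPM the 30 °C groups of all 3 genes overlapped or lay close together, and the heat shock groups were well apart. On the TMM scale all 3 were called lower with 5ph-IAA at 30 °C (ENP1 -0.61, RRP12 -0.62, TSR1 -0.67).

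The remaining 16 factors held the extremes. NSR1, the yeast nucleolin, had 16.0 and 15.5 TPM in heat shock with 5ph-IAA, 10.6 and 10.8 TPM without it, 816 and 855 TPM at 30 °C with it, and 1017 and 999 TPM in the control. It was the most abundant of the 48 at 30 °C and fell the most, with a log2 change of -5.50 ± 0.07 with 5ph-IAA (adjusted p = 1.93e-16) and -6.68 ± 0.06 without it (adjusted p = 1.53e-17). KRR1, a KH-domain protein, fell the least, with 148 and 163 TPM in heat shock with 5ph-IAA, 73.7 and 72.3 TPM without it, 295 and 299 TPM at 30 °C with it, and 211 and 216 TPM in the control. Its change was -0.71 ± 0.06 with 5ph-IAA (adjusted p = 7.09e-08) and -1.68 ± 0.06 without it (adjusted p = 3.63e-12). KRI1, which binds Krr1, was likewise among the least changed, with 67.2 and 71.4 TPM in heat shock with 5ph-IAA, 30.7 and 27.4 TPM without it, 189 and 184 TPM at 30 °C with it, and 166 and 153 TPM in the control. SOF1, a WD40 protein, had 5.06 and 5.33 TPM in heat shock with 5ph-IAA, 4.6 and 5.51 TPM without it, 107 and 103 TPM at 30 °C with it, and 59.9 and 62.6 TPM in the control. It was the member whose heat shock libraries with 5ph-IAA overlapped those without it. NOP14, the partner of Noc4, had 19.1 and 21.2 TPM in heat shock with 5ph-IAA, 6.04 and 6.16 TPM without it, 96.6 and 93.3 TPM at 30 °C with it, and 73.4 and 75.4 TPM in the control. ENP2, which associates with Bfr2, had 32.0 and 31.8 TPM in heat shock with 5ph-IAA, 10.6 and 10.2 TPM without it, 103 and 95.5 TPM at 30 °C with it, and 95.9 and 96.4 TPM in the control. UTP20, the longest protein of the set, had the lowest 30 °C level. It had 4.64 and 4.82 TPM in heat shock with 5ph-IAA, 4.01 and 3.44 TPM without it, 21.7 and 21.2 TPM at 30 °C with it, and 24.2 and 21.6 TPM in the control.

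Heat-shocked cells with 5ph-IAA were then set against heat-shocked cells without it. At 39 °C, 45 of 48 genes were higher with 5ph-IAA than without it, where 22.5% of all genes tested were higher, and 1 was lower, where 22.0% of all were. The median log2 fold change was 1.20, against 0.00 over all genes. With library totals alone the median of all genes moved to 0.14, with 2315 genes higher and 709 lower of 5734, against 1292 and 1260 on the TMM scale. With limma on log2(TPM + 1) it moved to 0.28, with 3199 higher and 370 lower of 5827. Over 17 settings the members' median lay 1.04 to 1.23 above that of all genes, a range that does not test the scaling, which moves both medians alike. Ribosomal protein genes held 10.3% of TPM with 5ph-IAA and 19.6% without it at 39 °C, and their part in the result was not tested. By TPM, both libraries with 5ph-IAA lay above both without it for 46 genes (73.0% of all genes) and below them for 1 gene (11.5% of all). UTP13 showed the greatest increase, 1.69 ± 0.09 on the log2 scale (adjusted p = 7.49e-09), followed by RRP3 with 1.65 ± 0.08, UTP4 with 1.61 ± 0.07 and IMP3 with 1.59 ± 0.15. Increases were small for UTP22 (0.35 ± 0.07, adjusted p = 0.000999), RRP9 (0.28 ± 0.09, adjusted p = 0.0174) and NSR1 (0.26 ± 0.09, adjusted p = 0.0229). RRP9 did not pass without heat shock replicate 1 (adjusted p = 0.125) or without heat shock with 5ph-IAA replicate 2 (adjusted p = 0.136). NSR1 did not pass without heat shock replicate 1 (adjusted p = 0.116), nor without replicate 1 (adjusted p = 0.144) or replicate 2 (adjusted p = 0.0515) of heat shock with 5ph-IAA, nor in a fit of the 4 heat shock libraries alone (adjusted p = 0.0858). UTP20, at 0.05 ± 0.07 (adjusted p = 0.605), and SOF1, at -0.25 ± 0.14 (adjusted p = 0.153), were not called. With limma on log2(TPM + 0.1) UTP20 was called higher (0.34, adjusted p = 0.0444). RCL1 was lower, at -0.50 ± 0.10 (adjusted p = 0.00129), and on the TPM scale, with limma on log2(TPM + 1), its value was -0.20 (adjusted p = 0.105). Without heat shock replicate 1, SOF1 was called lower too (-0.40, adjusted p = 0.0399).

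**Figure D4:**
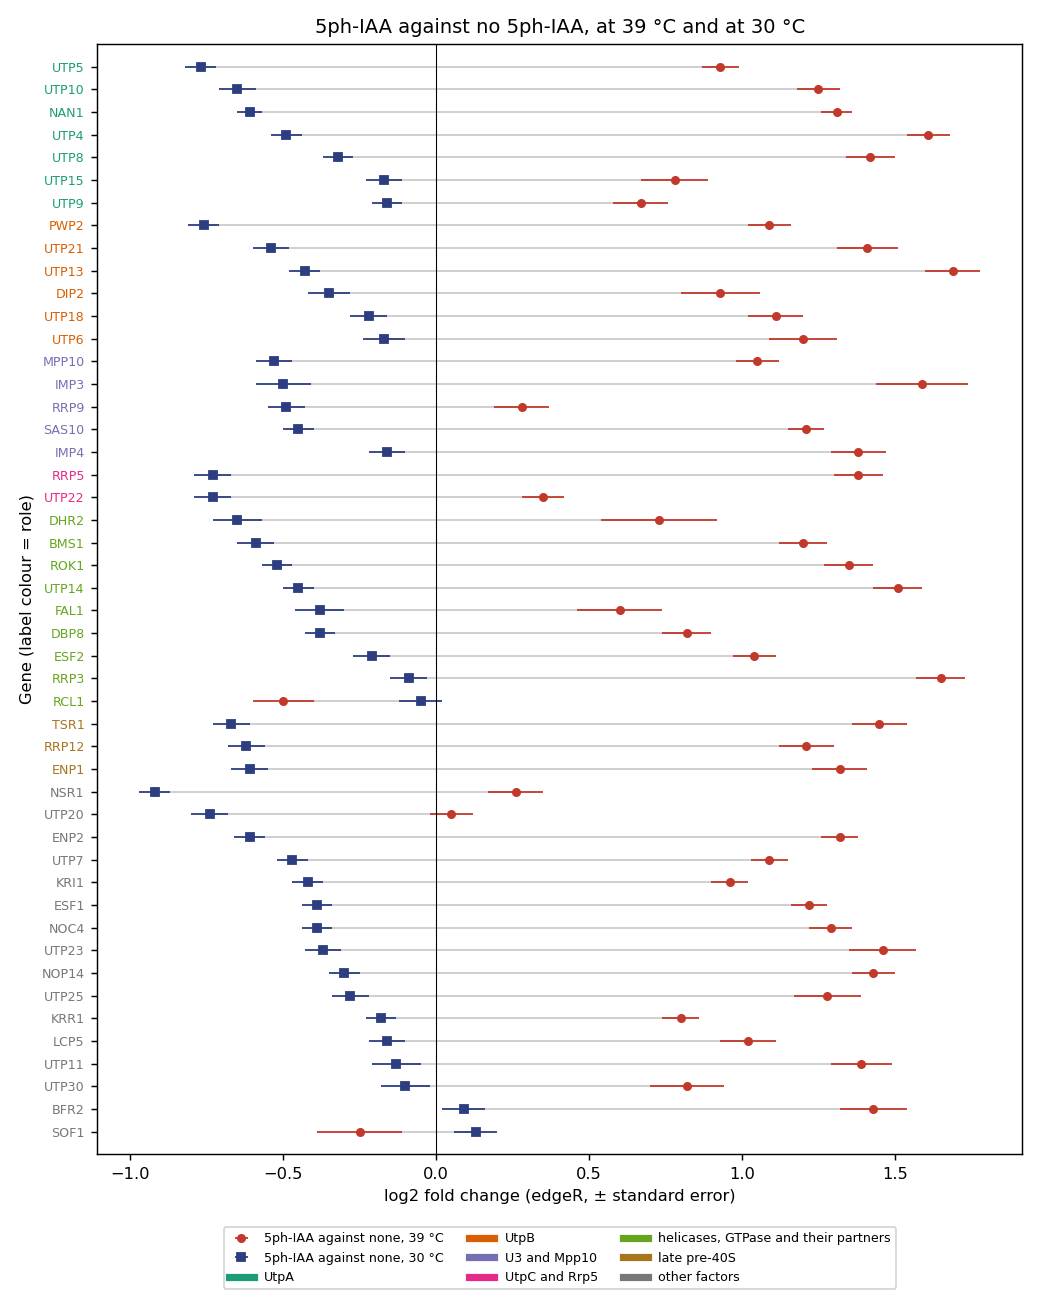
log2 fold change of 5ph-IAA against no 5ph-IAA (edgeR, ± standard error) for each of the 48 genes at 39 °C (red circles) and at 30 °C (blue squares), ordered by role. At 39 °C the points lie above 0 except for RCL1 and SOF1, and at 30 °C they lie below 0 except for SOF1 and BFR2, where the direction at 30 °C depends on the scaling.

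The interaction measures how much the change at 39 °C against 30 °C differed between cells with 5ph-IAA and cells without it, as the value with 5ph-IAA minus the value without it. It was positive and called for 46 of 48 genes, where 26.0% of all genes tested were called in that direction, and negative for 1, where 22.9% were. The median was 1.57 on the log2 scale, against 0.00 over all genes. With library totals alone the members' median was 1.32 and that of all genes -0.26, with 908 genes positive and 2550 negative, against 1490 and 1315 on the TMM scale. With limma on log2(TPM + 1) the members' median was 1.16 and that of all genes -0.35, with 687 of 5827 genes positive and 2920 negative. Over 16 settings the members' median lay 1.51 to 1.62 above that of all genes, a range that again does not test the scaling. UTP13 and TSR1 had the greatest values, 2.12 ± 0.11 each, with adjusted p = 3.65e-09 for UTP13 and 4.48e-09 for TSR1. RRP5 had 2.11 ± 0.10 and UTP4 had 2.10 ± 0.08. NAN1, at 1.93 ± 0.07, had the lowest adjusted p, 2.86e-10. By role, the median ranged from 1.38 for the helicases, Bms1 and partners to 1.93 for the late pre-40S factors. RCL1 was the exception called negative, at -0.45 ± 0.12 (adjusted p = 0.00881), and without replicate 2 of heat shock with 5ph-IAA its value was -0.31 (adjusted p = 0.0626). SOF1 had -0.38 ± 0.15 (adjusted p = 0.0577). It was called negative without heat shock replicate 1 (-0.53, adjusted p = 0.0146) and without control replicate 2 (-0.45, adjusted p = 0.0379). It was also called negative with library totals (-0.63, adjusted p = 0.00291) and with limma on log2(TPM + 1) (-0.73, adjusted p = 0.00184) or log2(TPM + 0.1) (-0.73, adjusted p = 0.00334). The deepest heat shock libraries were those without 5ph-IAA, in which the members were lowest.

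At 30 °C, 40 of 48 genes were lower with 5ph-IAA than without it relative to the TMM scale, where 28.1% of all genes tested were lower, and 0 were higher, where 23.6% of all were. At an unadjusted p under 0.05, 42 were lower and 0 higher, and the share of all genes at that threshold is not given here. DESeq2 called 37 members lower and 0 higher, where it called 1383 of 5734 genes lower and 1205 higher. The median log2 fold change was -0.43, against -0.02 over all genes. This direction depends on the scaling. With library totals alone 14 members were higher and 15 lower, where 3962 of all 5734 genes were higher and 503 lower. The members' median was then -0.03 while that of all genes moved to 0.38. With limma on log2(TPM + 1) 29 members were higher and 1 lower, where 4859 of 5827 genes were higher and 273 lower. The members' median was then 0.22, with 0.61 over all genes. Over 17 settings the members' median lay 0.39 to 0.43 below that of all genes. Library scaling moves both medians alike, so this range cannot test the scaling. It describes a level that is lower relative to the median gene. By TPM, both libraries with 5ph-IAA lay above both control libraries for 35 members (89.0% of all genes) and below them for 3 (5.95% of all). The share of TPM held by ribosomal protein genes was 17.2% ± 0.0962 with 5ph-IAA and 40.2% ± 0.685 in the control (SD, n = 2), and its part in the result was not tested.

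On the TMM scale NSR1 changed the most at 30 °C, by -0.92 ± 0.05 (adjusted p = 1.58e-09), and was followed by UTP5 with -0.77 ± 0.05, PWP2 with -0.76 ± 0.05 and UTP20 with -0.74 ± 0.06. NSR1, UTP5 and PWP2 were the 3 genes that lay below the control in TPM as well. On the TPM scale with limma, UTP5 (-0.12, adjusted p = 0.104), PWP2 (-0.11, adjusted p = 0.152) and UTP20 (-0.09, adjusted p = 0.464) did not pass. UTP13, the neighbour of IFH1, had -0.43 ± 0.05, the value of the median member. The 8 genes not called were SOF1, BFR2, RCL1, RRP3, UTP30, UTP11, IMP4 and UTP6, with values of 0.13 for SOF1 and -0.17 for UTP6 at the ends. SOF1 was called higher with library totals (0.52, adjusted p = 2.65e-05) and with limma on log2(TPM + 1) (0.77, adjusted p = 8.57e-05). BFR2 was called higher under these settings too, with 0.49 (adjusted p = 7.82e-05) and 0.73 (adjusted p = 0.000585). The median over all genes was 0.38 with library totals, where 3962 of 5734 genes were called higher. It was 0.61 with limma on log2(TPM + 1), where 4859 of 5827 were. BFR2 had 15.7 and 20.0 TPM in heat shock with 5ph-IAA, 5.88 and 4.84 TPM without it, 157 and 146 TPM at 30 °C with it, and 90.6 and 91.0 TPM in the control. UTP11 had 58.5 and 63.4 TPM in heat shock with 5ph-IAA, 17.2 and 20.7 TPM without it, 184 and 182 TPM at 30 °C with it, and 129 and 127 TPM in the control. In TPM both libraries with 5ph-IAA lay above both control libraries at 30 °C for all 8 genes not called, and for 89.0% of all genes. UTP30 had 14.7 and 18.2 TPM in heat shock with 5ph-IAA, 7.5 and 7.65 TPM without it, 97.6 and 100 TPM at 30 °C with it, and 70.4 and 65.0 TPM in the control. IMP4 had 38.5 and 35.0 TPM in heat shock with 5ph-IAA, 12.3 and 10.8 TPM without it, 161 and 156 TPM at 30 °C with it, and 116 and 110 TPM in the control.

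The change at 30 °C varied with the length of the gene. The median log2 fold change was -0.62 in the 16 longest coding sequences (2208 to 7482 bases), -0.40 in the 16 of middle length (1542 to 2166 bases) and -0.18 in the 16 shortest (552 to 1506 bases). On the TMM scale all 16 of the longest were called lower, as were 15 of the middle and 9 of the shortest, where 28.1% of all genes tested were. These calls depend on the scaling, since limma on log2(TPM + 1) called 1 of the 48 lower and 29 higher. Of all 5827 genes in that setting, 273 were lower and 4859 higher. Spearman's rho between coding length and change was -0.609 over the 48 genes, which share the same 4 libraries, and 0.0247 over all 5734 genes tested. NSR1, with 1245 bases, departed from this order. In the other comparisons rho over the 48 genes was -0.0413 for heat shock with 5ph-IAA, -0.267 for heat shock without it, 0.109 for 5ph-IAA at 39 °C and 0.394 for the interaction. RNA integrity was not measured here, and its part in the result was not tested.

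**Figure D5:**
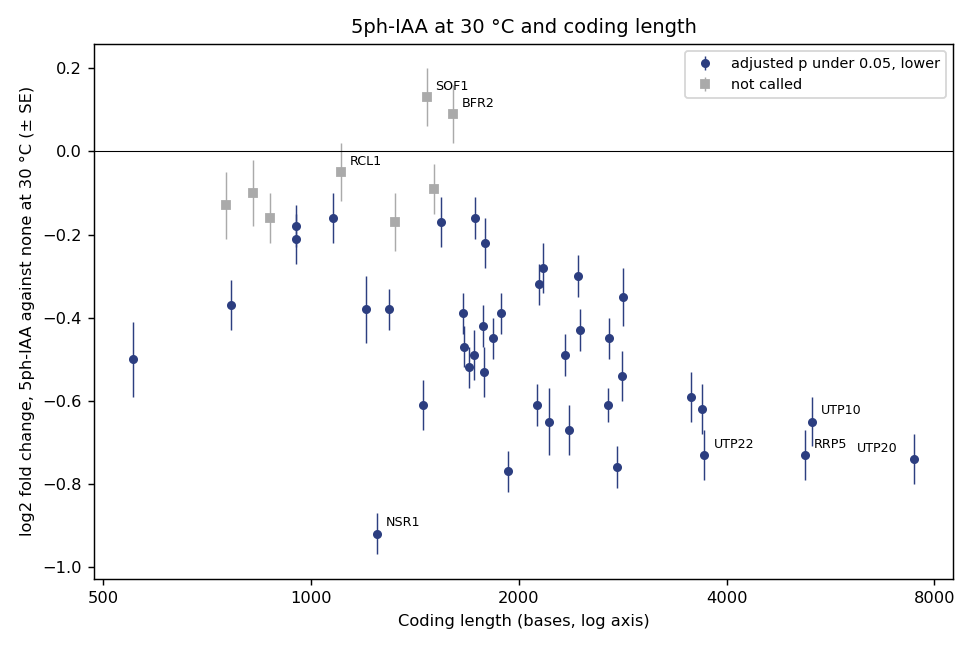
log2 fold change of 5ph-IAA against no 5ph-IAA at 30 °C (edgeR with TMM scaling, ± standard error) against coding length in bases (log axis) for the 48 genes, with called genes as blue circles and genes not called as grey squares. The longest genes, UTP20, UTP10 and RRP5, lie at -0.74, -0.65 and -0.73, whereas the genes not called are all among those of at most 1605 bases.

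Other genes of the pathway, taken from lists of known factors, were set beside the 48. Of 20 further nucleolar factors of the early particle, 19 fell and 1 rose in heat shock without 5ph-IAA, with a median of -2.75. RRP36 with -4.37 and KRE33, an RNA acetyltransferase, with -4.30 led them, and the helicase cofactor SQS1 was the gene that rose (0.41 ± 0.06, adjusted p = 5.38e-05). The interaction was positive and called for 18 of the 20 (median 1.15) and not called for RRP7 and SQS1, both of which were called negative with library totals and with limma on log2(TPM + 1). The partner of Utp22 in UtpC, RRP7, had -0.84 ± 0.06 in heat shock with 5ph-IAA and -0.83 ± 0.06 without it, and its interaction of -0.02 was not called (adjusted p = 0.889). The box C/D proteins that U3 shares with other small nucleolar RNAs fell in 4 of 4 cases, with a median of -2.96 without 5ph-IAA, led by NOP1, the rRNA methyltransferase fibrillarin, with -3.52, and NOP58 with -3.14. The subunits of casein kinase 2, also found in UtpC, all 4 fell without 5ph-IAA but by less, with a median of -0.51, and CKA2 had -0.79 and CKA1 -0.66.

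Factors of later steps and of the large subunit moved the same way in heat. All 11 late and cytoplasmic 40S factors fell without 5ph-IAA (median -2.63), with PNO1, an RNA-binding assembly factor, at -3.63 and NOB1, the endonuclease that makes the 3′ end of 18S rRNA, at -3.48. All 46 nuclear assembly factors of the large subunit fell as well (median -3.84), with the GTPase NOG2 at -6.24 and PUF6 at -5.65. Their interaction was positive and called for 45 of 46, with a median of 1.62 beside the 1.57 of the processome genes, and IPI1 was not called (0.21, adjusted p = 0.387). The difference between these lists was not tested. Of 56 small subunit ribosomal protein genes listed, 54 were tested. All 54 fell in heat shock without 5ph-IAA (median -1.22), with RPS27A at -3.35 and RPS9A at -3.06, and 49 fell in heat shock with it (median -0.55). Their interaction was positive and called for 52 of 54, with a median of 0.68, and for 41 of 54 with limma on log2(TPM + 1), with a median of 0.31. Between cells with and without 5ph-IAA at the same temperature their medians were negative. Of the 54, 51 were lower and 1, RPS27A, was higher with 5ph-IAA at 39 °C, with a median of -1.33 against 1.20 for the processome genes, and at 30 °C all 54 were lower, with a median of -2.03. Many of these genes are duplicated, so kallisto's sharing of reads between copies can move single values.

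The regulators of these promoters differed among themselves. TOD6, which encodes a PAC-binding repressor, had 13.8 and 12.6 TPM in heat shock with 5ph-IAA, 5.15 and 4.7 TPM without it, 114 and 109 TPM at 30 °C with it, and 109 and 110 TPM in the control. Its mRNA thus fell in heat as the processome genes did, with -2.84 ± 0.07 with 5ph-IAA and -4.60 ± 0.07 without it (log2), and an interaction of 1.76 ± 0.11 (adjusted p = 2.35e-08). DOT6, its paralog, rose in heat, by 1.34 ± 0.05 with 5ph-IAA and 0.88 ± 0.05 without it. STB3 rose by 1.00 ± 0.06 with 5ph-IAA and 1.13 ± 0.06 without it, and SFP1, an activator of ribosome biogenesis genes, rose by 0.89 ± 0.05 with 5ph-IAA and 0.96 ± 0.05 without it. FHL1, which recruits Ifh1, had -0.53 ± 0.10 with 5ph-IAA and -0.61 ± 0.10 without it.

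The medians by promoter element, as in the windows shown above, spanned a narrower range among members than among other genes, a difference that was not tested. In heat shock without 5ph-IAA the members' median was -3.93 for the 21 with both elements, -3.71 for the 14 with PAC alone, -4.33 for the 7 with RRPE alone and -3.31 for the 6 with neither. Among all other genes tested it was -2.58 for 103 with both, -1.09 for 234 with PAC alone, -1.06 for 269 with RRPE alone and 0.14 for 5060 with neither. Of those 103 other genes, 94 were called lower. The median interaction was 1.71 for members with both elements, 1.55 with PAC alone, 1.84 with RRPE alone and 1.17 with neither. Among other genes it was 1.06 with both, 0.38 with PAC alone, 0.42 with RRPE alone and -0.04 with neither. The 6 members with neither string still fell in heat, and no match says only that these letters are not in the 250 bases searched.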

How the data were processed

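For every library the authors deposited estimated counts and TPM of each coding target. The submitters' processing notes name kallisto as the tool, and its version, the transcripts and the build were not given in the sources used here. Strand is not marked by TruSeq RNA v2, the kit named in the labels' protocols. Kallisto splits reads between similar targets, and 6.89% to 7.51% of the deposited estimated counts were not whole. The tables gave no symbol for 939 targets.

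Libraries were grouped by title, temperature and replicate label. The deposited estimated counts (7717767 to 21025464 per library) were rounded to whole numbers and fitted with edgeR 4.0.16 in R 4.3.3 (quasi-likelihood, TMM, filterByExpr), all 8 libraries in 1 fit with a term per group and 4 residual degrees of freedom. This tested 5734 targets, including all 48 members, and p-values were adjusted by Benjamini-Hochberg with a threshold of 0.05, two-sided. A fold change has its standard error and a mean its SD. Replicates differed by more than counting noise (chi-square per degree of freedom 3.41 to 4.53), so no library was a copy. The deposited TPM values were used for levels, and for limma 3.58.1 on log2(TPM + 1) or log2(TPM + 0.1) with at least 1 TPM in 2 libraries.

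Other alternatives were library totals, DESeq2 1.42.0, no filter, group means of at least 100 counts, a replicate block, the 4 libraries of a comparison alone and leaving out each library. Same-numbered replicates did not deviate together (r -0.137 to 0.108 between groups), so the main fit has no pairing. The members and all lists were chosen with earlier results of these data known. By the rule for named genes, every member could be named, with values in every library for the 4 most negative and 2 most positive of each comparison, the highest of each role, 14 members listed by name, those not called at 30 °C with 5ph-IAA or elsewhere, and the lowest p-values of the interaction. Beside the members the rule named IFH1, TOD6, DOT6, STB3, SFP1 and FHL1 and the 2 genes of greatest change in each other list, taken in heat shock without 5ph-IAA. RRP7, SQS1 and IPI1 were named after their values were seen. DBP4 was listed among the early factors and was not analysed here.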

Additional observations from a re-analysis of the deposited data

Results flagged for a closer look

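The heat shock change differed between cells with and without 5ph-IAA by the edgeR test of that difference in 46 members with a higher value and 1 with a lower value, against 26.0% and 22.9% of all genes tested in these directions. The lower member was RCL1, with a difference of -0.45 on the log2 scale. Among the members described in full, the difference was 0.77 for RRP9, 0.79 for UTP20, 1.09 for UTP22, 1.18 for NSR1 and 1.19 for DBP8. It was 1.58 for MPP10, 1.72 for NOP14, 1.79 for BMS1, 1.85 for PWP2 and 1.90 for UTP10. ENP1, ENP2 and NAN1 had 1.93 each. The greatest differences were 2.10 for UTP4, 2.11 for RRP5, 2.12 for TSR1 and 2.12 for UTP13. UTP20 did not pass on the TPM scale (0.37, adjusted p = 0.072, with limma on log2(TPM + 1)).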

How the results depend on the processing

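Of 1351 values of named members under an alternative, 1299 kept their direction and side of the threshold, 17 no longer passed, 17 passed anew and 18 turned round. The tally does not cover all 48 members, and at 30 °C it leaves out most of the genes called lower. Among the values it covers, the 18 all belong to 5ph-IAA at 30 °C and to genes not called there. With library totals alone IMP4, RCL1, RRP3, UTP11, UTP30 and UTP6 had 0.24, 0.35, 0.30, 0.26, 0.30 and 0.23 on the log2 scale. With limma on log2(TPM + 1) the same genes had 0.49, 0.59, 0.55, 0.51, 0.54 and 0.47, and with log2(TPM + 0.1) they had 0.49, 0.60, 0.56, 0.51, 0.55 and 0.48. In that comparison 14 members were higher and 15 lower with library totals, where 3962 of 5734 genes were higher and 503 lower. With log2(TPM + 1) 29 members were higher and 1 lower, where 4859 of 5827 genes were higher and 273 lower. With log2(TPM + 0.1) 27 members were higher and 1 lower, where 4863 of 5827 genes were higher and 273 lower. The members' median was 0.22 under either TPM scale. Only 8 members were not called in the main fit, so some members called lower there were called higher under each of these settings. These settings differ from TMM in the zero point, which moved the median of all genes to 0.38, 0.61 and 0.63. The members' share of estimated counts differed by -0.0955 points at 30 °C (5ph-IAA minus control), while their share of TPM was higher. At 39 °C the members lower with 5ph-IAA numbered 0 with limma on either TPM scale and 1 to 2 when a library was left out. In the interaction, 2 members were lower with library totals and with limma on either scale, and 0 to 2 when a library was left out. The cause was not tested. With the replicate block all 48 members were again lower in both heat shock comparisons, 45 were higher and 1 lower for 5ph-IAA at 39 °C, and 46 were higher and 1 lower in the interaction. At 30 °C 41 were lower, since UTP6 was called anew (adjusted p = 0.0332). A minimum of 100 counts in every group mean left 45 members. With 2 libraries a group, an exact test of a single value cannot go below 0.33, and members at a few TPM after heat rest on as few as 45 reads.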
